A study of Homo sapiens with 4 samples.

Results

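The 8 transcripts described here are long noncoding RNAs measured in A549, an established line of human lung adenocarcinoma: NEAT1, MALAT1 and MEG3, which stay in the nucleus, and GAS5, ZFAS1, SNHG1, SNHG12 and SNHG15, which carry small nucleolar RNAs (snoRNAs) in their introns. They were picked by name, the nuclear RNAs partly because their levels were known to differ between replicates, from the 25192 genes of the deposited tables. 7 of the 8 were found under these symbols. ZFAS1 was found under its older symbol ZNFX1-AS1, whose RefSeq transcripts are those of ZFAS1. RNA was sequenced from 2 cultures transduced with the control empty virus (EV), the pLZRS-IRES-GFP retroviral vector with GFP only, and 2 transduced with the same vector carrying FCN3, a secreted lectin, with a V5 tag at its end. All were taken at 48 h after infection. The labels number the libraries 1 and 2 in each group but do not say what the numbers share, nor that the cultures were raised separately, so p-values measure only the spread between these samples, which may be technical. Everything below comes from 1 cell line and 1 viral construct.

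NEAT1 is the architectural RNA of paraspeckles, nuclear bodies that hold RNA-binding proteins and edited RNAs. MALAT1 is an abundant RNA of nuclear speckles, where splicing factors gather. MEG3 is an imprinted RNA of the DLK1-DIO3 locus that is linked to p53 signaling and growth control. The host transcripts differ in where they act and how they end: their introns are processed into snoRNAs, which guide chemical modification of ribosomal RNA, while the spliced exons leave the nucleus. GAS5 (growth arrest-specific 5) and several of its relatives begin with a run of pyrimidines like that of ribosomal protein mRNAs (a 5′ TOP start), are bound by ribosomes although they encode no known protein, and are degraded by nonsense-mediated decay (NMD) when they are translated. Their level is therefore known to rise when translation or growth slows.

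All are annotated as lncRNA in GENCODE on GRCh37, the same build as the hg19 the reads were aligned to. NEAT1 lies on the plus strand of chromosome 11 from 65190245 to 65213011, and MALAT1 on the same strand of chromosome 11 from 65265111 to 65275544. MEG3 lies on the plus strand of chromosome 14 from 101245747 to 101327368. GAS5 (minus strand of chromosome 1, from 173827697 to 173838020) and ZFAS1 (plus strand of chromosome 20, from 47894715 to 47916137) are the hosts whose levels differed most between the groups. SNHG1 is on the minus strand of chromosome 11, spanning 62619450 to 62623425, SNHG12 on that of chromosome 1 from 28905050 to 28909644, and SNHG15 on that of chromosome 7 from 45022618 to 45026560. The transcript counted for NEAT1 was 3735 bases long, against 22767 bases for the annotated gene, so its values are those of the region shared by the short, polyadenylated form and the long form that builds the paraspeckle, and do not separate the forms.

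The sequence around the annotated start is shown for GAS5 and ZFAS1, the hosts on which the comparison of the viruses turns, as an example of a pyrimidine-rich start. Each window holds 10 bases before and 20 bases from the start of the canonical GENCODE transcript, read from GRCh37, and capitals mark its longest run of C and T. Other starts are annotated for these genes.
GAS5, chr1:173837108-173837137, minus strand: accatactgTCTTTTCgaggtaggagtcga
ZFAS1, chr20:47895169-47895198, plus strand: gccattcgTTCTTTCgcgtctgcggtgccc
The run was 7 bases long in both. A run of at least 7 bases was found in 3 of the 5 hosts, so it was not particular to GAS5 and ZFAS1. Of 55018 canonical transcripts of all genes, 17.6% had a run of at least 7 bases in this window, and the median was 4.

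The intronic snoRNAs of ZFAS1 and a snoRNA of GAS5 are shown next, as the products that these hosts carry. Capitals mark the letters TGATGA, the C box, in the opening 20 bases and CTGA, the D box, in the last 20 bases, searched on the strand of the snoRNA.
SNORD12, chr20:47897220-47897309, plus strand: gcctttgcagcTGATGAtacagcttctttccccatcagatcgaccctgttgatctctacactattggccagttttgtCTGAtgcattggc
SNORD12B, chr20:47896856-47896946, plus strand: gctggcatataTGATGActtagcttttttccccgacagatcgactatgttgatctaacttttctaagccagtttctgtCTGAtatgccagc
SNORD12C, chr20:47895477-47895565, plus strand: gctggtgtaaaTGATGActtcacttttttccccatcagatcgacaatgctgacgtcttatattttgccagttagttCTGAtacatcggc
SNORD78, in GAS5, chr1:173834760-173834824, minus strand: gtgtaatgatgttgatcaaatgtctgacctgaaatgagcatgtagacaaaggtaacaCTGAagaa
By these exact letters, both boxes were found in all 3 snoRNAs of ZFAS1, and the D box alone in SNORD78. SNORD78 reads TGATGT near its start, and C boxes with letters other than TGATGA were not searched for. Of 1458 annotated snoRNA genes of every kind, including kinds that do not carry these boxes, 15% held both in these windows. The deposited tables have a row for each of 26 snoRNAs of the 5 hosts. Of these, 24 were at 0 counts in every library, SNORD22 of SNHG1 had 2 or 3 counts in each library, and SNORA61 of SNHG12 had 1 count in EV replicate 2. A count of 0 is below the floor of 3 counts used for detection, and most of these rows have an effective length of 0 bases, which leaves no room for a fragment of the size sequenced. The values below are therefore those of the spliced hosts and say nothing of the amount of snoRNA.

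For MALAT1 the part near its 3′ end is shown, because mRNA libraries of this kind are selected on poly(A) and MALAT1 has no added tail. The mature RNA ends in a tract of A encoded in the genome, which pairs with U-rich stretches upstream. Capitals mark a U-rich motif at the start of the window and the A-rich tract at its end.
MALAT1, chr11:65273500-65273587, plus strand: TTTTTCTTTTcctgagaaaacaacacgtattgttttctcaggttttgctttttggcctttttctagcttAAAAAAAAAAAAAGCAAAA
The A-rich tract was 19 bases long. The capitals of the U-rich motif and the last letters of the tract were both found, on the strand of the gene, in the last 2500 bases of 0.0667% of 64486 annotated genes.

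The libraries held between 16353554 and 35733735 expected counts, the RSEM estimate of fragments per gene, the replicate 1 libraries being the deeper ones. Counts were rounded, normalized by TMM to CPM (counts scaled to a common library size) and compared with edgeR's quasi-likelihood test with Benjamini-Hochberg adjustment over 14099 tested genes, all 8 members among them. FCN3 had at most 1 count in the EV libraries and took 2.06% and 2.23% of all counts in the FCN3 libraries. Of 5 epithelial markers all were detected, with a summed share of counts between 0.299% and 0.381% in EV and between 0.349% and 0.446% with the FCN3 virus. KRT8 and KRT18 made up most of it, and EPCAM had at most 82 counts in a library. The 5 markers did not move together: 3 were higher with the FCN3 virus and 2 lower, with log2 fold changes from -1.12 to 1.24. Of 6 leukocyte markers, PTPRC, CD3E, LYZ and MS4A1 had at most 1 count in any library, while CD68, a lysosomal protein, made up most of the list's sum of 0.00332% and 0.00347% in EV and 0.00605% and 0.00485% with the FCN3 virus. Only CD68 and CD14 were tested, and they went opposite ways. 1 of these 2 was higher with the FCN3 virus (log2 fold change 0.79) and 1 was lower (-1.31). In such bulk cultures, fewer cells of a type and less RNA per cell cannot be told apart. Of 6 fibroblast markers, DCN was at 0 and COL1A2 had at most 2 counts.

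GAS5 and ZFAS1 were the members that separated the groups. GAS5 was at 52.6 CPM in EV replicate 1 and 42.2 CPM in EV replicate 2, against 152.9 and 116.1 CPM in FCN3 replicates 1 and 2. The groups did not overlap, and the gap between them was wider than the spread within either. The mean was 47.4 ± 7.38 CPM in EV and 134.5 ± 26.0 CPM with the FCN3 virus (SD, n = 2 in each group). This is a 2.83-fold difference (95% interval 2.08 to 3.85), or 1.50 on the log2 scale (SE 0.18), with an adjusted p of 0.0138 in edgeR's quasi-likelihood test, just outside the FDR threshold of 0.01. Between libraries of the same number the log2 fold change was 1.54 for replicate 1 and 1.46 for replicate 2. The adjusted p was 0.00469 without EV replicate 1, 0.00702 without EV replicate 2 and 0.00207 without FCN3 replicate 2, each below the threshold, and 0.0141 without FCN3 replicate 1. Each of these fits sets 1 library against 2 and assumes that the lone library varies like those of the other group.

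ZFAS1, which is known from mammary gland development, was at 64.5 and 50.7 CPM in EV replicates 1 and 2. It was at 152.2 and 133.1 CPM in FCN3 replicates 1 and 2, so that the groups did not overlap here either. Its mean was 57.6 ± 9.76 CPM in EV and 142.6 ± 13.5 CPM with the FCN3 virus (SD, both n = 2), a 2.47-fold difference (95% interval 1.92 to 3.17). On the log2 scale this was 1.30 (SE 0.14, edgeR adjusted p = 0.0122), with 1.24 between the replicate 1 and 1.39 between the replicate 2 libraries. Leaving out EV replicate 1, EV replicate 2 or FCN3 replicate 2 gave adjusted p-values of 0.00276, 0.00481 and 0.00489, below the threshold, while leaving out FCN3 replicate 1 gave 0.0200. The transcript length that RSEM weighted over the ZFAS1 isoforms ran from 772 to 777 bases in EV and from 792 to 803 bases with the FCN3 virus.

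**Figure D1:**
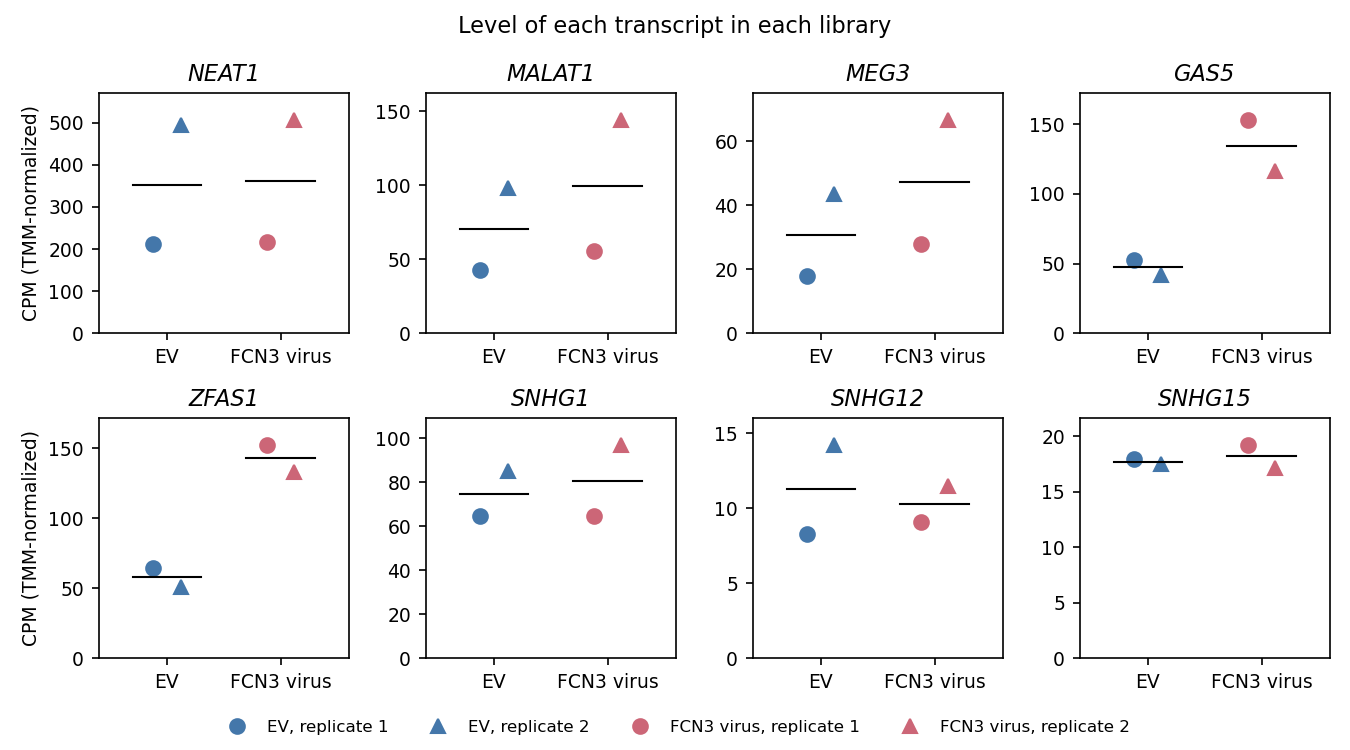
Level of each member in each library, in TMM-normalized CPM on axes that start at 0. Points are libraries (circles, replicate 1, triangles, replicate 2; blue, EV, red, FCN3 virus) and lines are group means (n = 2). GAS5 and ZFAS1 separate by virus, from 42.2 to 64.5 CPM in EV and from 116.1 to 152.9 CPM with the FCN3 virus. NEAT1, MALAT1 and MEG3 separate by replicate number.

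SNHG1, SNHG12 and SNHG15 did not follow GAS5 and ZFAS1. SNHG1, the host of a set of box C/D snoRNAs, was at 64.6 and 85.1 CPM in EV replicates 1 and 2 and at 64.7 and 97.1 CPM in FCN3 replicates 1 and 2. The groups overlapped, and the log2 fold change was 0.11 (95% interval -0.46 to 0.69, edgeR adjusted p = 0.810). SNHG12 was at 8.29 and 14.2 CPM in EV and at 9.11 and 11.5 CPM with the FCN3 virus. Both FCN3 libraries lay between the EV libraries, with a log2 fold change of -0.09 (95% interval -0.83 to 0.64, edgeR adjusted p = 0.882). SNHG15 was the steadiest member, at 17.9 and 17.5 CPM in EV and 19.2 and 17.1 CPM with the FCN3 virus. Its log2 fold change was 0.04 (95% interval -0.28 to 0.36, edgeR adjusted p = 0.880), so a change of the size seen in GAS5 lies outside its interval, as it does for SNHG1 and SNHG12. The sign of SNHG1, SNHG15 and NEAT1 differs with the scaling (the values are given with the other settings), and no direction is given for them.

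The nuclear RNAs showed differences between the groups that were small beside the spread within each group. NEAT1 was at 212.0 and 494.4 CPM in EV replicates 1 and 2 and at 217.0 and 506.1 CPM in FCN3 replicates 1 and 2. The ranges of the groups were nearly the same, and the log2 fold change was 0.03 (95% interval -1.28 to 1.35, edgeR adjusted p = 0.978), with 0.03 within each replicate number. MALAT1 was at 42.5 and 97.9 CPM in EV and at 55.7 and 144.0 CPM with the FCN3 virus. The FCN3 library was the higher of each same-numbered pair, by 0.39 and 0.56 on the log2 scale, but the groups overlapped and the log2 fold change of 0.52 (SE 0.55) had an edgeR adjusted p of 0.618. MEG3 was at 17.9 and 43.5 CPM in EV and at 27.8 and 66.5 CPM with the FCN3 virus. Here too the FCN3 library was higher within each number, by 0.63 and 0.61 on the log2 scale, with an overall log2 fold change of 0.64 (SE 0.55, edgeR adjusted p = 0.529). Without FCN3 replicate 2 the log2 fold change was -0.33 for MALAT1 and -0.12 for MEG3, and without EV replicate 2 it was 1.22 and 1.37. In these fits the groups hold unequal replicate numbers, so the difference between replicates 2 and 1, given below, enters the log2 fold change.

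**Figure D2:**
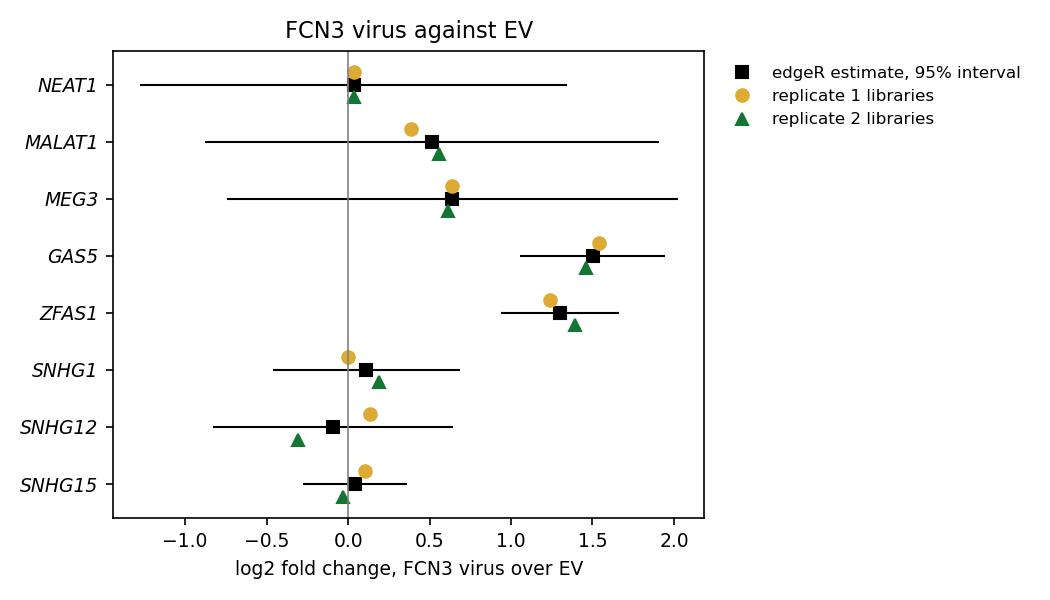
Log2 fold change of each member, FCN3 virus over EV. Squares and bars are the edgeR estimate and its 95% interval, circles the difference between the replicate 1 libraries and triangles that between the replicate 2 libraries. The intervals of GAS5 (1.06 to 1.94) and ZFAS1 (0.94 to 1.67) lie above 0, and those of the other 6 members include it.

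Across the members, edgeR called 0 of 8 at an FDR of 0.01, against 0.965% of all tested genes (0.738% higher and 0.227% lower with the FCN3 virus). At an unadjusted p under 0.05 there were 2 of 8, against 25.1% of all genes, and at an FDR of 0.05 the same 2, GAS5 and ZFAS1, against 7.19%. DESeq2, the tool of the study's methods, also called 2 of 8 at an FDR of 0.01, against 7.86% of the genes for which it gave an adjusted p. The groups did not overlap in 2 of 8 members, below the 54.5% of all tested genes. By size of change GAS5 had 310 genes above it and ZFAS1 440, of 14099. An exact permutation test of a single member, 2 libraries against 2, has a smallest two-sided p of 0.333, and none was made.

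Levels per length were compared in TPM, which RSEM normalizes for transcript length and depth. In EV cells the order was GAS5 (187.1 ± 29.7 TPM), NEAT1 (180.4 ± 101), ZFAS1 (174.0 ± 31.1), SNHG1 (143.9 ± 27.1), SNHG15 (51.0 ± 1.06), SNHG12 (36.0 ± 13.3), MEG3 (34.1 ± 23.3) and MALAT1 (15.0 ± 8.27), each SD with n = 2. The libraries of each of the upper 4 overlapped those of its neighbours among them, and so did those of SNHG12, MEG3 and MALAT1, while SNHG15 lay above SNHG12 in both EV libraries. Every EV library of the upper 4 lay above every one of the lower 4. With the FCN3 virus GAS5 (493.2 ± 90.6 TPM) and ZFAS1 (385.3 ± 27.6 TPM) stood above NEAT1 (172.8 ± 99.4 TPM), with no overlap between libraries. MALAT1 was the lowest member per length in both groups, at 19.9 ± 12.7 TPM with the FCN3 virus, in libraries selected for poly(A).

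Replicates 1 and 2 were compared next. This is the contrast for which the nuclear RNAs were picked, so it is given as a description with no test. NEAT1, MALAT1 and MEG3 were higher in replicate 2 of both groups. For NEAT1, replicate 2 exceeded replicate 1 by 1.22 on the log2 scale in EV and by 1.22 with the FCN3 virus, a ratio of 2.33 in each. For MALAT1 the difference was 1.20 in EV and 1.37 with the FCN3 virus. For MEG3 it was 1.28 and 1.26. The ratio of replicate 2 to replicate 1 thus ran from 2.30 to 2.59 over the 3 RNAs. This was larger than the fold difference between the viruses that each of them showed over all 4 libraries. The counts show the same before normalization: NEAT1 had 7727 counts in EV replicate 1 and 8277 in EV replicate 2, although the second library was less deep.

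The hosts split. SNHG1 was higher in replicate 2 by 0.40 in EV and 0.59 with the FCN3 virus, and SNHG12 by 0.78 and 0.33. GAS5 was lower in replicate 2, by 0.32 and 0.40 on the log2 scale, and so was ZFAS1, by 0.35 and 0.19, while SNHG15 was lower by 0.03 and 0.16. The difference thus kept its direction in both groups for every member. In 5 of 8 members replicate 2 was higher in both groups, against 35.5% of all tested genes. In 3 of 8 members both differences were above 1, against 1.71% of all tested genes, and in 6 of 8 the replicate numbers did not overlap, against 38.2%. Nothing is read from these shares, since the contrast helped to choose the members.

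**Figure D3:**
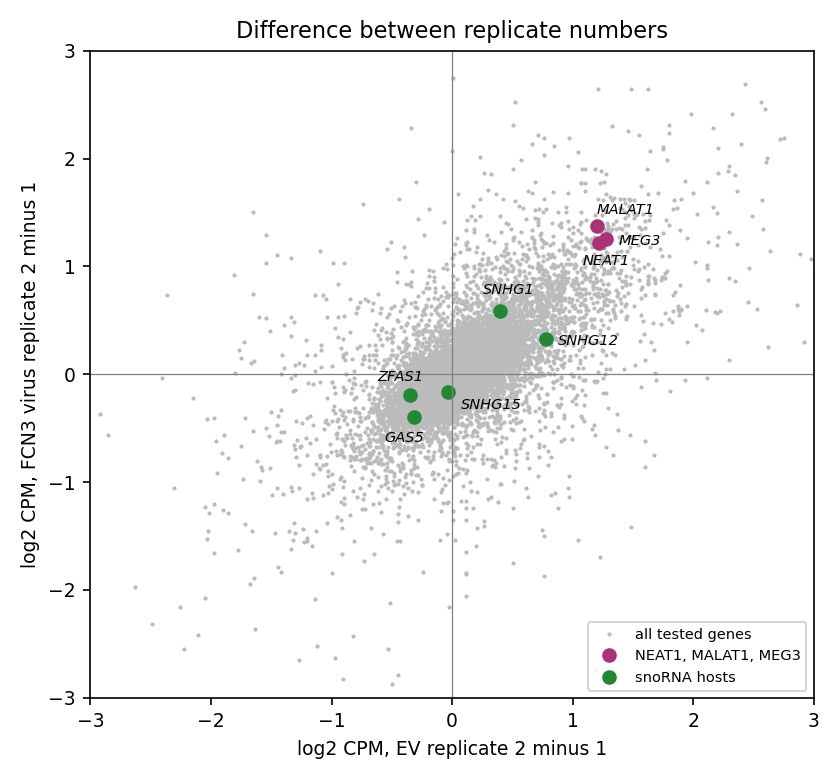
Difference in log2 CPM between replicates 2 and 1, in EV (x axis) and with the FCN3 virus (y axis). Grey points are the 14099 tested genes, of which 65 lie outside the axes, and coloured points are the members. NEAT1, MALAT1 and MEG3 sit together between 1.20 and 1.37 on both axes, while GAS5, ZFAS1 and SNHG15 lie just below 0 on both.

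Other values moved with the replicate number, and their part in these differences was not tested. The replicate 2 libraries were the shallower. The summed share of the epithelial markers was higher in replicate 2 in both groups, with KRT8 higher by 0.34 and 0.33 on the log2 scale. Of the fibroblast markers, the collagen genes COL1A1 (higher in replicate 2 by 1.27 in EV and 1.52 with the FCN3 virus) and COL3A1 (1.80 and 2.24) moved the same way, the latter from at most 20 counts, while THY1 differed by 0.09 and -0.17. The fibroblast list as a whole took between 0.00180% and 0.00423% of the counts. The 73 histone genes whose symbols begin with HIST and a digit took 0.00547% and 0.00653% of the counts in EV replicates 1 and 2. With the FCN3 virus they took 0.00585% and 0.00648%. Replication-dependent histone transcripts typically have no poly(A) tail, but forms with a tail were not separated in these sums.

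Among other lncRNAs known to be enriched in the nucleus, 7 of 12 listed symbols were tested and 0 were called in edgeR at an FDR of 0.01 (1 at an unadjusted p under 0.05, 0 in DESeq2). Over all genes the shares were 0.965%, 25.1% and 7.86%. 5 of the 7 were higher in replicate 2 of both groups, against 35.5% of all tested genes. These 5 include MEG9, described below, and FTX, which differed by 0.52 in EV and 0.01 with the FCN3 virus. Over the 7, the median difference was 0.52 in EV and 0.31 with the FCN3 virus, against medians of 0.00 and -0.02 over all tested genes. The EV median is the value of FTX, from 18 and 12 counts. TUG1, the most abundant of the 7, differed by 0.13 and 0.31. It was at 137 and 151 CPM in EV and 120 and 149 CPM with the FCN3 virus, while the others reached at most 4.24 CPM. MIAT, an RNA of its own nuclear domain, was higher in replicate 2 by 2.20 and 2.10, from CPM values of 0.906 and 4.24 in EV and 0.678 and 2.97 with the FCN3 virus. DLEU2, the host of miR-15a and miR-16-1, had the lowest log2 fold change of the list with the FCN3 virus, at -0.94 (edgeR adjusted p = 0.148). In the DLK1-DIO3 locus only MEG9 besides MEG3 passed the filter on low counts, and it was higher in replicate 2 by 2.61 in EV and 2.01 with the FCN3 virus. Its level was between 0.384 and 2.66 CPM.

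Of 4 tested lncRNAs that act in the cytoplasm, 0 were called in edgeR at an FDR of 0.01 (0 at an unadjusted p under 0.05, 0 in DESeq2), beside 0.965%, 25.1% and 7.86% of all genes. Of the 4 lncRNAs, 3 were lower in replicate 2 of both groups, against 39.8% of all tested genes. LINC00657 (NORAD, which binds Pumilio proteins) was lower by 0.33 and 0.33 on the log2 scale. H19, an imprinted RNA, was the exception and was higher in replicate 2 by 2.98 in EV and 1.07 with the FCN3 virus. Its log2 fold change between the groups was -2.06 (SE 1.14, edgeR adjusted p = 0.334). Whether nuclear and cytoplasmic RNAs differ in this respect was not tested.

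Over the 4 libraries, the genes with a profile nearest to that of NEAT1 (Euclidean distance of centred log2 CPM, out of 8309 other genes whose log2 CPM averaged 4 or more) were PILRB (distance 0.118), LENG8 (0.188), XAGE1B and XAGE1C (0.194 each) and HERC2P2 (0.211). XAGE1B and XAGE1C are near-identical copies with the same value, so each alone is uncertain. The nearest to GAS5 were MAGT1 (0.0569), SLC39A14 (0.0881), KLF4 (0.101), SELK (0.121) and N4BP2 (0.173). Of these, SLC39A14, a zinc transporter, was called in edgeR (log2 fold change 1.51, adjusted p = 0.00869), and the others had adjusted p-values between 0.0120 and 0.0159. These genes share the libraries and their depth with GAS5, and with 4 libraries many genes can look alike. As they were picked for a profile like that of GAS5, values near its own follow from the choice.

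Other snoRNA hosts were compared by a list of mostly noncoding transcripts (TAF1D also encodes a protein), 14 of which were tested. Of these, 9 were higher and 5 were lower with the FCN3 virus, with a median log2 fold change of 0.10 against 0.02 over all tested genes, and edgeR called 0 at an FDR of 0.01 (8 at an unadjusted p under 0.05, 2 in DESeq2). The shares of all genes beside these 3 counts are 0.965%, 25.1% and 7.86%. The sign of the list's median differs with the scaling, from -0.01 to 0.10. The median over all tested genes moved too, to -0.07 on log2(TPM + 1) and -0.09 on log2(TPM + 0.1). The list's median was -0.01 on both of these scales. EPB41L4A-AS1 had the largest difference, from 7.44 and 7.23 CPM in EV to 11.7 and 13.5 CPM in FCN3 libraries (log2 fold change 0.77, edgeR adjusted p = 0.0509). SNHG5 was at 158.4 and 125.0 CPM in EV and at 256.6 and 217.6 CPM in FCN3 libraries (log2 fold change 0.74, edgeR adjusted p = 0.0466). C17orf76-AS1, now named SNHG29, is given because it had the lowest adjusted p of the list and was chosen after its values were seen. It was at 365.2 and 364.3 CPM in EV and at 558.5 and 563.4 CPM with the FCN3 virus, with little spread in either group (log2 fold change 0.62, SE 0.08, edgeR adjusted p = 0.0150). At the other end SNHG10 had a log2 fold change of -0.52 (edgeR adjusted p = 0.136). Among all 19 tested hosts 13 were higher and 6 lower, and GAS5 and ZFAS1 had the largest differences.

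The protein partners and the pathways of these RNAs were described by lists. Of 15 paraspeckle proteins all 15 had a negative log2 fold change, with a median of -0.18 against 0.02 over all tested genes. The median ran from -0.29 to -0.11 under the 12 other settings. EdgeR called 0 at an FDR of 0.01 (6 at an unadjusted p under 0.05, 3 at an FDR of 0.05, 4 in DESeq2). For this list and those below, the shares of all genes beside these counts are 0.965%, 25.1%, 7.19% and 7.86%. The share of all genes with a negative value was not counted. RBM14, which is needed for paraspeckles to form, was at 151.4 and 141.4 CPM in EV and 94.2 and 83.7 CPM in FCN3 libraries (log2 fold change -0.72, edgeR adjusted p = 0.0189). PSPC1, a core paraspeckle protein, was at 61.6 and 56.3 against 42.5 and 40.3 CPM (log2 fold change -0.51, edgeR adjusted p = 0.0434). Both FCN3 libraries lay below both EV libraries in 12 of the 15, beside 54.5% of all tested genes with no overlap in either direction. The share for the lower direction alone was not counted. NEAT1 itself showed no such separation. In the lists that follow, the groups did not overlap in 9 of 16 nuclear speckle proteins and 7 of 15 NMD factors. The same held for 3 of 8 snoRNP core proteins and 49 of 89 mRNAs with a 5′ TOP start.

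Of 16 nuclear speckle proteins, 15 had a negative log2 fold change, with a median of -0.18 and 0 called in edgeR (4 at an unadjusted p under 0.05, 2 in DESeq2). The splicing factors SRSF2 (log2 fold change -0.45, adjusted p = 0.0626) and U2AF2 (-0.43, adjusted p = 0.0381, both in edgeR) had the largest differences. Of 15 NMD factors and exon junction proteins, 10 had a negative value, with a median of -0.09 and 0 called in edgeR (2 at an unadjusted p under 0.05, 0 in DESeq2). The lowest were EIF4A3, a core of the exon junction complex (-0.42, edgeR adjusted p = 0.0610), and UPF1, the central NMD helicase (-0.29, edgeR adjusted p = 0.160). Of 8 snoRNP core proteins, which bind the snoRNAs released from the hosts, edgeR called 0 (1 at an unadjusted p under 0.05, 0 in DESeq2). Their median was -0.05, with NOP56 at -0.24 (edgeR adjusted p = 0.172) and the methyltransferase FBL at -0.11 (edgeR adjusted p = 0.442). Under the 12 other settings the median ran from -0.28 to -0.18 for nuclear speckle proteins. It ran from -0.18 to -0.001 for NMD factors and from -0.15 to -0.03 for snoRNP core proteins.

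Of 89 mRNAs with a 5′ TOP start, mostly those of ribosomal proteins, 83 had a positive log2 fold change and edgeR called 0 at an FDR of 0.01 (15 at an unadjusted p under 0.05, 0 in DESeq2). Their median was 0.15, with values from -0.19 to 0.43, so that each of them lay below the 1.50 of GAS5 and the 1.30 of ZFAS1. The median ran from 0.05 to 0.16 under the other scalings and tools. With 1 library left out it was 0.21 without EV replicate 1, 0.09 without EV replicate 2, 0.09 without FCN3 replicate 1 and 0.20 without FCN3 replicate 2. RPL10 (0.43, edgeR adjusted p = 0.0727) and TPT1 (0.40, edgeR adjusted p = 0.144) had the largest values. In 60 of the 89 replicate 1 was higher in both groups, the direction of GAS5 and ZFAS1, against 39.8% of all tested genes.

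**Figure D4:**
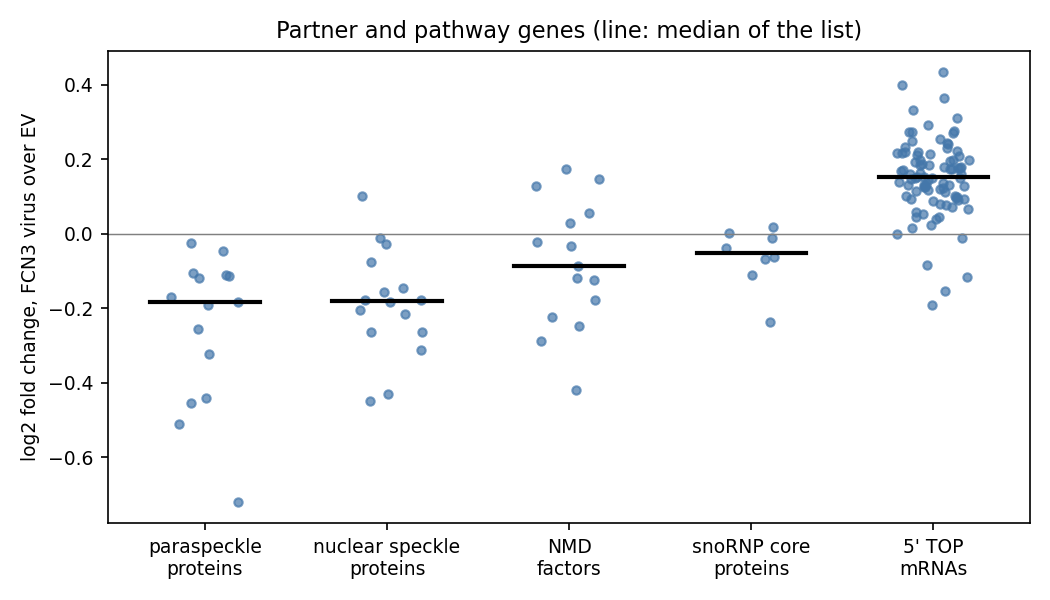
Log2 fold change (FCN3 virus over EV) of the tested genes of 5 lists of partner and pathway genes. Points are genes and lines are the medians, -0.18 for paraspeckle and for nuclear speckle proteins, -0.09 for NMD factors, -0.05 for snoRNP core proteins and 0.15 for 5′ TOP mRNAs.

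The strand setting of the counting is not given in the sources used here, so values of genes that overlap the members on the opposite strand are given beside them. ZBTB37, a zinc finger gene, shares 801 bases with GAS5 and had a log2 fold change of 0.32 (edgeR adjusted p = 0.543). ZNFX1 shares 249 bases with ZFAS1 and had a log2 fold change of 0.33 (edgeR adjusted p = 0.108). How far reads of one strand were counted for the other was not tested.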

How the data were processed

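The authors trimmed paired-end reads of stranded mRNA libraries, aligned them to hg19 with STAR 2.6.1d and estimated abundance with RSEM. The deposited values are expected counts, not normalized, and TPM and FPKM, which RSEM normalized for length and depth. The authors' FPKM values stayed unused. The gene annotation and strand setting are not given in the sources used here. Expected counts, once rounded, entered R 4.3.3 with edgeR 4.0.16 (TMM, filterByExpr, quasi-likelihood test, FDR threshold 0.01) on all genes. The SE of a log2 fold change is its size over the square root of F. Differences between single libraries are of log2 CPM with a prior count of 0.5. The alternatives were DESeq2 1.42.0, limma 3.58.1 on log2(TPM + 1) and log2(TPM + 0.1), other scalings, no filter, a replicate block, an FDR of 0.05 and each library left out. The tests were tried on simulated data. The members, lists and named genes (members, the 2 largest changes of a list without calls, the 5 nearest profiles) were chosen with earlier results of these data known. Locations come from GENCODE v44 lifted to GRCh37. The floor of 3 counts lay between 0.0823 and 0.179 CPM and covers counting error only. The authors' supplementary tables were not used. Some overlapping genes and 1 start sequence are not reported here.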

Additional observations from a re-analysis of the deposited data

How the results depend on the processing

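GAS5 and ZFAS1 kept their direction in 12 of 12 alternatives, with adjusted p-values from 7.7e-28 to 0.0190 for GAS5 and from 1.6e-25 to 0.0200 for ZFAS1. Leaving out 1 library put the log2 fold change of GAS5 between 1.29 and 1.69 and of ZFAS1 between 1.14 and 1.50. DESeq2 gave 1.49 and 1.29 with both called, and at an FDR of 0.05 both were called with the values unchanged, 1.50 and 1.30. Under library totals the log2 fold change was -0.024 for NEAT1 and -0.023 for SNHG15. With limma and TPM, pseudocounts of 1 and 0.1 gave -0.069 and -0.069 for NEAT1, -0.0076 and -0.0078 for SNHG1, and -0.067 and -0.069 for SNHG15. The median over all tested genes also moved with the scaling, to -0.049 under library totals and to -0.072 and -0.087 in TPM. With a library left out, the range was -0.70 to 0.76 for NEAT1, -0.33 to 1.22 for MALAT1, -0.12 to 1.37 for MEG3, -0.21 to 0.38 for SNHG1, -0.48 to 0.29 for SNHG12 and -0.049 to 0.12 for SNHG15. The groups then hold unequal replicate numbers, so the difference between the numbers enters these values. The number of genes called was 136, and 1047 in DESeq2, 5103 with the replicate block, 1014 at an FDR of 0.05 and from 92 to 267 with a library left out. Among the members and listed genes 0 were called, against 10 in DESeq2, 94 with the replicate block, 8 at an FDR of 0.05 and 0 to 2 with a library left out. These counts are of the 8 members and 167 other tested genes of the lists. The shares of all genes beside them were 7.86% in DESeq2, 36.2% with the replicate block and 7.19% at an FDR of 0.05. Members and listed genes were called more often than all genes with the replicate block, and less often under the other 2 settings. The causes were not tested. The labels do not say that a replicate number marks a shared batch or day. The differences between numbers correlated between the groups (r = 0.521 across 14099 genes, which are not independent replicates). With the replicate block in edgeR, GAS5 (1.50), ZFAS1 (1.31), MALAT1 (0.47, adjusted p = 2.4e-09) and MEG3 (0.62, adjusted p = 1.9e-10) were called, 4 of 8 members beside 36.2% of all tested genes, and the other 4 were not. Of 80 recomputed differences between replicates, all kept their sign and 78 moved by less than counting error, the others being MEG3 in EV in TPM (1.47 and 1.52). At these depths the smallest member had 228 counts in a library.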
